A study of Mus musculus with 12 samples.

Results

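Collagen genes were examined as a family across 4 organs of mice kept on chow (NCD) or switched to fat-rich food (HFD) and given narciclasine (ncls), a plant alkaloid of the amaryllis family, or vehicle (veh). Their members were the gene symbols of the pattern Col, number, a, number that reached at least 1 FPKM in any of the 12 libraries. FPKM is a fragment count per kilobase of transcript, scaled to the fragments mapped in the library, and it allows levels of different genes to be set side by side. Where 3 values of an organ follow each other, they stand for NCD-veh, then HFD-veh, then HFD-ncls. The pattern matched 44 of 22276 symbols, and 28 of them were members, among 13664 genes that reached 1 FPKM in any library. RNA-seq had been done on white fat (WAT), brown fat (BAT), liver and muscle (quadriceps in the study's methods), with 1 library for each organ in each of 3 groups. All mice were male C57BL/6J, aged 17 wk at collection, and the labels name no altered allele in any group. NCD-veh mice stayed on chow. HFD-veh and HFD-ncls mice had HFD from 8 wk of age. Veh, or ncls at 1 mg/kg, was given weekly by oral gavage from 10 wk of age, so every group was gavaged. Neither the number of mice behind a library nor the WAT depot is given for these libraries. With 1 library per organ and group there is no spread between animals, so values are described and no difference is tested. Diet or treatment and the animals sampled cannot be told apart. A library of a whole organ also cannot tell fewer cells of a type from less RNA per cell.

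Collagens are secreted proteins in which chains wind into a triple helix and then assemble into larger structures outside the cell. Fibrillar types I, III and V build the tension-bearing fibres of connective tissue, type IV forms the sheet of basement membranes around vessels, muscle fibres and adipocytes, and type VI makes beaded filaments that link cells to the surrounding matrix. FACIT collagens sit on the surface of fibrils, and multiplexins lie in the basement membrane zone. In adipose tissue this matrix encases each fat cell, and in liver and muscle it is made largely by fibroblast-like cells.

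By class, 8 of 11 fibrillar symbols were members, with 4 of 6 type IV chains, 5 of 6 type VI chains, 5 of 9 FACITs, both of 2 multiplexins, 1 of 3 short-chain network collagens, 1 of 4 transmembrane collagens and 2 of the 3 anchoring fibril and other symbols. The other 16 symbols stayed under 1 FPKM in every library. They were Col2a1, Col4a3, Col4a4, Col6a4, Col8a2, Col9a1, Col9a2, Col9a3, Col10a1, Col11a1, Col11a2, Col13a1, Col17a1, Col19a1, Col25a1 and Col26a1. Col2a1, Col9a1 to Col9a3, Col10a1 and Col11a1 are known from cartilage, and Col17a1 from the epidermis. The members nearest the limit were Col24a1, with a highest level of 1.20 FPKM (HFD-veh muscle), and Col23a1, at 1.47 FPKM (NCD-veh WAT). Just outside it were Col13a1, at 0.811 FPKM in NCD-veh liver, and Col11a2, at 0.801 FPKM in HFD-ncls BAT. Of the 28 members, 8 reached 1 FPKM in all 12 libraries, namely Col1a1, Col1a2, Col3a1, Col4a1, Col4a2, Col5a3, Col6a1 and Col15a1.

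Several members lie side by side in the genome (build mm9). Col4a1 (chr8:11198423-11312826, minus strand) and Col4a2 (chr8:11312805-11449287, plus strand) start head to head and share 22 bases. Col4a6 and Col4a5 start head to head on chromosome X with 1308 bases between them. Col6a2 (chr10:76058507-76086375) and Col6a1 (chr10:76171537-76188913) follow each other on the minus strand, 85161 bases apart. Col18a1 (chr10:76514923-76629293, minus strand) overlaps Slc19a1 on the plus strand, and Col1a1 (chr11:94797538-94814356, plus strand) overlaps the gene model Gm17329 on the minus strand. Whether counting used strand is not given in the sources used here, so reads of such overlapping genes could not be told apart.

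Upstream sequence is shown for 5 members that carry the comparisons that follow: the type VI chains, which differed most between diets in WAT as a group, and Col1a2 and Col3a1 of the fibrillar class. Each window is the 250 bases before a RefSeq gene start on GRCm38.p6, written in the direction of transcription, and capitals mark the TATA motif TATAAA, the CCAAT motif or the GC motif GGGCGG, each searched on both strands. No capitals of different motifs overlap in these windows. For Col6a2, which has 2 starts in the table, the window farther upstream is shown.
Col6a1 (chr10:76726045-76726294, minus strand): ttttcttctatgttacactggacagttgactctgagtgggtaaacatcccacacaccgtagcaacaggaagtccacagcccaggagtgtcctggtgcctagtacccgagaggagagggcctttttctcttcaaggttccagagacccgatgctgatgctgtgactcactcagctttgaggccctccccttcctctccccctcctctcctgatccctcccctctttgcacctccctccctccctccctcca
Col6a2 (chr10:76623631-76623880, minus strand): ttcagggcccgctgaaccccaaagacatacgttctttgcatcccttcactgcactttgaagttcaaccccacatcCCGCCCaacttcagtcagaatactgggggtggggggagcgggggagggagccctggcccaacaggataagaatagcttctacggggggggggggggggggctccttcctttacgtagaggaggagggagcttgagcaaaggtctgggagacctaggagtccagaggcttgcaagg
Col6a3 (chr1:90843972-90844221, minus strand): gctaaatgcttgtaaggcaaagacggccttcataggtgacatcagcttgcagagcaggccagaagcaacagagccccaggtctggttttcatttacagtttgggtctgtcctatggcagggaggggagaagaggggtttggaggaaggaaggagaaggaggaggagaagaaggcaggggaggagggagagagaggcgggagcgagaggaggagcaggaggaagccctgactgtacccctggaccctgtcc
Col1a2 (chr6:4505368-4505617, plus strand): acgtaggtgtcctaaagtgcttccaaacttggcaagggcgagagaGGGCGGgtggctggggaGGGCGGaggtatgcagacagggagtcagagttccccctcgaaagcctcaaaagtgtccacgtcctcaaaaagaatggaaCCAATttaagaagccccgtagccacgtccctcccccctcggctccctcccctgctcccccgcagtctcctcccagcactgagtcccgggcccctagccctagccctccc
Col3a1 (chr1:45311288-45311537, plus strand): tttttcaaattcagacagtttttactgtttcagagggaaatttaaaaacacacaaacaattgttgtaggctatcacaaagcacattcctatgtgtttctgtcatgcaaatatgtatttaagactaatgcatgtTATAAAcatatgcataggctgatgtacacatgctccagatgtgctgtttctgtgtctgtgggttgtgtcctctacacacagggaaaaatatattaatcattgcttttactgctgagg
Windows were found for 23 of the 28 members and not for Col1a1, Col5a2, Col12a1, Col14a1 and Col22a1, and 25 windows were searched. TATAAA was present in 1 of them, that of Col3a1, 117 bases before the start, against 12.4% of 32851 windows of all genes. CCAAT was present in 8 windows (32%, against 33.8% of all windows) and GGGCGG in 16 windows (64%, against 32.7%). The windows of Col6a1 and Col6a3 hold none of the 3 motifs. A match is a description of letters and not a binding site.

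The libraries matched their organ labels by most of the markers used. Of the brown adipocyte markers, Ucp1 and Cidea were highest in BAT. Elovl3 was highest in liver, at 154, 41.3 and 80.1 FPKM, against 18.6, 7.39 and 6.52 FPKM in BAT. Adipoq and Plin1 were highest in WAT, Ucp1 was at 740 to 770 FPKM in BAT and at most 3.92 in WAT, and hepatocyte and muscle fibre markers were highest in liver and muscle, except that Alb has no value in liver and Myh4 none in muscle. Approximate depths, read from the steps of low FPKM values, were about 18200000 fragments (HFD-ncls WAT) to 25700000 fragments (HFD-veh muscle). RNA of another organ was estimated in 6 libraries. Liver RNA was estimated in HFD-veh muscle, HFD-veh WAT and HFD-ncls WAT, and muscle RNA in NCD-veh BAT, HFD-veh BAT and HFD-veh liver. The share of this RNA ran from 0.0520% (muscle in HFD-veh liver) to 1.71% (muscle in NCD-veh BAT) of its level in the source. Apart from Col18a1 in HFD-veh muscle, described with the muscle values, this RNA would add at most 1.75% (Col5a3 in HFD-veh muscle). This limit covers RNA of liver or muscle only, and members at 1 FPKM or more in their library. The BAT shares are amounts above HFD-ncls BAT. Muscle fibre markers summed to 95.2 FPKM in HFD-ncls BAT, and its own muscle RNA was not estimated. WAT and BAT were not taken as sources, so their RNA in other organs was not estimated. The WAT marker Adipoq was at 11.4, 21.1 and 14.3 FPKM in muscle, against 1692 FPKM in HFD-veh WAT. The part of fat RNA in the collagen values was not tested.

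Collagen RNA was most abundant in WAT and made up a different mixture in each organ. The 28 members summed to 1540.35, 2726 and 2722 FPKM in WAT. In BAT the sums were 154, 177 and 132 FPKM. Liver libraries summed to 229, 166 and 205 FPKM, and muscle libraries to 76.7, 72.7 and 103 FPKM. Every WAT library was thus above every library of the other organs, and muscle held the lowest sums. As a share of all FPKM in a library, members took 0.438% to 0.778% in WAT, 0.0517% to 0.0697% in BAT, 0.0346% to 0.0444% in liver and 0.0201% to 0.0291% in muscle. Between 21 and 22 members reached 1 FPKM in a WAT library, 15 or 16 in BAT, 11 to 13 in liver and 14 to 16 in muscle.

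**Figure D1:**
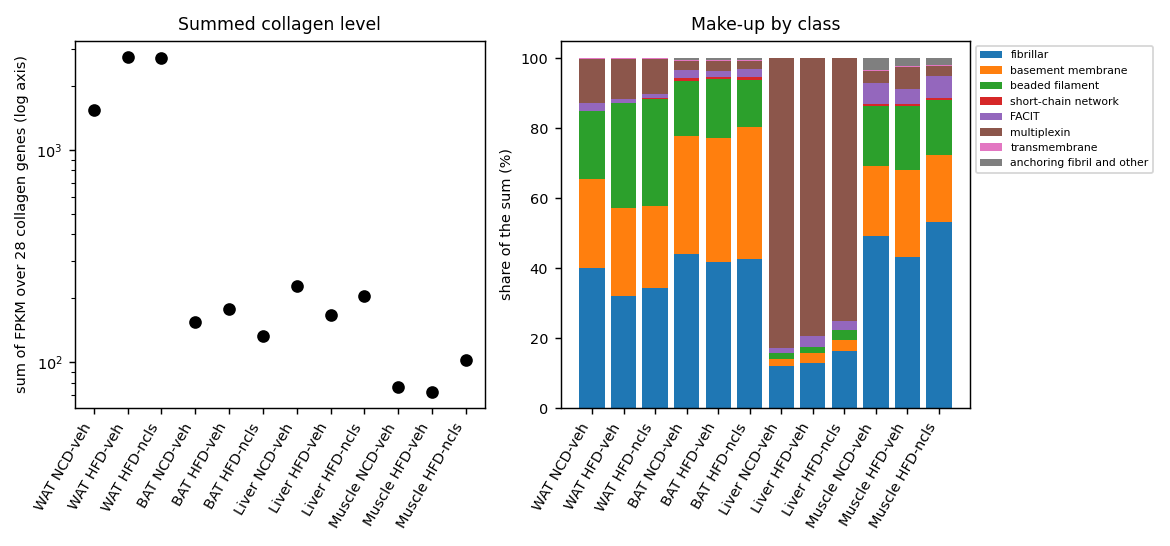
Left, the sum of FPKM over 28 collagen genes in each of the 12 libraries on a log axis, 1 point a library; right, bars of the share of that sum held by each collagen class, in percent. The WAT sums stand at 1540.35 to 2726 FPKM above all others, and the multiplexin share fills 75.0% to 82.6% of the liver bars.

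The classes behind these sums differed between organs. Fibrillar collagens held 32.1% to 40.1% of the sum in WAT, 41.8% to 44.2% in BAT and 43.2% to 53.2% in muscle, but 12.1% to 16.5% in liver. Type IV chains held 23.5% to 25.4% in WAT, 33.6% to 37.7% in BAT and 19.0% to 24.8% in muscle. Type VI chains held 19.4% to 30.5% of the WAT sum. In liver, multiplexins held 75.0% to 82.6%, and nearly all of that was Col18a1.

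**Figure D2:**
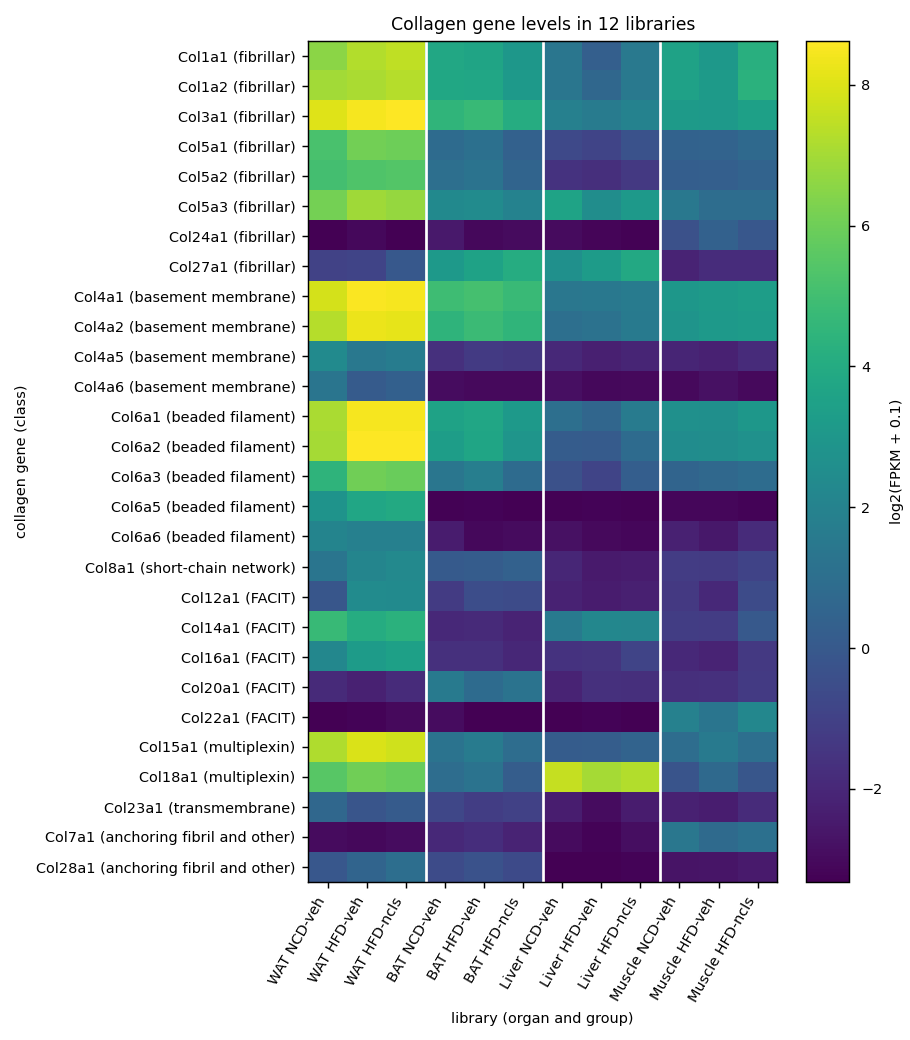
Heat map of log2(FPKM + 0.1) for the 28 collagen genes (rows, grouped by class) in the 12 libraries (columns, grouped by organ). Most genes are brightest in the 3 WAT columns, while Col18a1 is brightest in liver, Col27a1 in BAT and liver, Col20a1 in BAT, and Col7a1, Col22a1 and Col24a1 in muscle.

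For 22 of the 28 members (78.6%), all 3 WAT libraries were above the other 9 libraries, whereas 45.9% of 13648 genes with values in every library showed this. After the libraries were rescaled by their median ratio, the number was 19. The share of all genes was not computed after rescaling, so 45.9% is no measure for this number. Col4a5, Col4a6, Col6a5, Col6a6, Col12a1, Col16a1, Col23a1 and Col28a1 reached 1 FPKM in WAT libraries only. They were members through WAT alone, so the filter on FPKM favoured their being highest there. The genes behind the 45.9% had passed the same filter. WAT libraries also had higher levels over all genes, and the difference between WAT and each other organ is therefore given beside the median of all genes. For this, log2(FPKM + 0.1) was averaged over the 3 libraries of an organ. The median over members was 3.93 higher in WAT than in BAT (25 members reaching 1 FPKM in either organ), where the median of all genes was 1.02 higher. Against liver it was 5.36 higher (24 members, all genes 1.03), and against muscle 4.77 higher (26 members, all genes 1.28). Without overlap of the libraries, 23 of 25 members were higher in WAT than BAT (70.4% of all genes) and 2 were lower (12.5%). Against liver 22 of 24 were higher (67.4%) and 2 lower (16.8%), and against muscle 23 of 26 were higher (71.4%) and 3 lower (15.9%). No member was lowest in all 3 WAT libraries, where 1.96% of all genes were. The 3 libraries of an organ differed in diet and treatment, so they are not replicates of 1 group.

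The 5 members with the highest mean level in WAT were Col3a1, Col4a1, Col6a2, Col6a1 and Col4a2. Col3a1, the fibrillar chain of soft and elastic tissues, was at 262, 356 and 387 FPKM in WAT, and no library of another organ passed 26.8 FPKM. Col4a1, a main basement membrane chain, was at 229, 372 and 348 FPKM in WAT. Its partner Col4a2 was at 155, 305 and 288 FPKM. In both type IV chains the HFD libraries were above NCD-veh and within a narrow range of each other. The members that most set WAT apart were Col6a5, Col15a1, Col4a6, Col6a6 and Col5a1. Of these, Col6a5, Col4a6 and Col6a6 were members through their WAT levels alone. Col6a5, an alternative chain of type VI, was at 6.94, 13.4 and 15.0 FPKM in WAT and at most 0.0154 FPKM elsewhere, so that its lowest WAT level was 450 times the highest level outside WAT. Col15a1, a multiplexin of the basement membrane zone, was at 149.5, 249 and 214 FPKM in WAT, where the lowest level was 48.5 times the highest elsewhere. This ratio was 22.8 for Col4a6, 19.9 for Col6a6 and 18.0 for Col5a1, the chain that starts fibril assembly.

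In BAT, type IV chains led. Col4a1 was at 29.8, 34.1 and 27.3 FPKM in BAT, followed by Col4a2 with a mean of 24.1 FPKM and Col3a1 with a mean of 22.0 FPKM. Col27a1, a fibrillar collagen known from cartilage, was at 8.50, 11.6 and 16.8 FPKM in BAT. Its levels in liver were 6.30, 9.35 and 14.9 FPKM, which overlapped those of BAT, while WAT stayed at or under 0.879 FPKM and muscle at or under 0.189 FPKM. In BAT and in liver alike, Col27a1 was lowest in NCD-veh and highest in HFD-ncls. Its WAT levels, all under 1 FPKM, had the same order, at 0.413, 0.443 and 0.879 FPKM. Its muscle levels did not, at 0.129, 0.189 and 0.182 FPKM, with HFD-veh highest. The FACIT Col20a1 was the only member with all 3 BAT libraries above the other 9, where 6.16% of all genes were. Col20a1 was at 2.91, 1.73 and 2.23 FPKM in BAT and at most 0.304 FPKM elsewhere. It was a member through BAT alone, so the filter on FPKM favoured its being highest there. Col14a1, another FACIT, was the only member lowest in all 3 BAT libraries (8.43% of all genes), at 0.129 to 0.170 FPKM.

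In liver, Col18a1 stood alone. This multiplexin, the precursor of the endostatin fragment and a known product of hepatocytes, was at 188, 131 and 152 FPKM in liver. WAT, the next organ, reached 64.9 FPKM, and the lowest liver level was 2.01 times this. It was the only member highest in all 3 liver libraries (12.2% of all genes), whereas 15 members (53.6%) were lowest in all 3 liver libraries, against 21.3% of all genes. The next members in liver by mean were Col27a1 (10.2 FPKM), Col5a3 (8.82 FPKM), Col14a1 and Col3a1 (3.48 FPKM). Col5a3, a type V chain, was at 12.2, 5.65 and 8.58 FPKM in liver, above BAT and muscle. The 15 members lowest in liver included Col1a1, Col1a2, Col3a1, Col4a1, Col4a2 and all 3 main type VI chains. Between BAT and liver, 13 of 17 members were higher in BAT (40.4% of all genes), 3 were lower (34.6%) and Col27a1 overlapped. Between liver and muscle, 4 of 18 were higher in liver (44.8% of all genes) and 14 were lower (37.3%).

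In muscle, Col1a2 and Col1a1, the chains of type I collagen, led with means of 13.4 and 12.6 FPKM, ahead of Col3a1 (9.49 FPKM), Col4a1 (9.03 FPKM) and Col4a2 (8.37 FPKM). Among members, 3 were highest in all 3 muscle libraries (10.7%, near the 11% of all genes), namely Col22a1, Col24a1 and Col7a1. All 3 reached 1 FPKM in muscle libraries only, so the filter on FPKM favoured their being highest there. Col22a1, a FACIT of the muscle-tendon junction, was at 3.74, 2.39 and 4.60 FPKM in muscle and at most 0.0296 FPKM elsewhere. Its lowest muscle level was 81.0 times that. Col24a1, a fibrillar collagen known from bone, was at 0.684, 1.20 and 0.842 FPKM in muscle and at most 0.0758 FPKM elsewhere. Col7a1, which forms anchoring fibrils in skin, was at 2.59, 1.63 and 2.04 FPKM in muscle and at most 0.200 FPKM elsewhere. Col5a3 and Col27a1 were lowest in all 3 muscle libraries (26.6% of all genes). Between BAT and muscle, 6 of 19 members overlapped, among them Col1a1, Col1a2 and Col15a1. Of the rest, 10 were higher in BAT, against 48.4% of all genes, and 3 were lower, against 32.5%.

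Ratios between chains of the same collagen type were narrow for some pairs and wide for others. Both chains of type I and both main chains of type IV stayed near each other in all organs. Col1a1 was 0.747 to 1.12 times Col1a2 over the 12 libraries, with a median ratio of 0.973. Col4a1 was 1.03 to 1.47 times Col4a2, with a median of 1.21. For Col6a1 against Col6a2 the ratio was 0.904 to 1.19 in WAT, BAT and muscle and 1.49 to 1.93 in liver. Col6a3, the longest type VI chain, was at 0.159 to 0.349 times Col6a1, lowest in WAT and highest in liver. Col5a1 was 0.869 to 2.33 times Col5a2 over the 12 libraries, whereas Col5a3 was 12.3 to 23.8 times Col5a1 in liver and 1.15 to 3.19 times in the other organs. Col4a5 was 2.17 to 2.67 times Col4a6 in WAT and 2.69 to 13.7 times in the other organs, where neither chain passed 0.311 FPKM. Between types, Col3a1 was 2.18 to 2.85 times Col1a1 in WAT but 0.600 to 1.04 times in muscle. These ratios are of levels per length, and those of liver rest on type VI and type V levels near or under 3 FPKM for all chains but Col5a3.

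**Figure D3:**
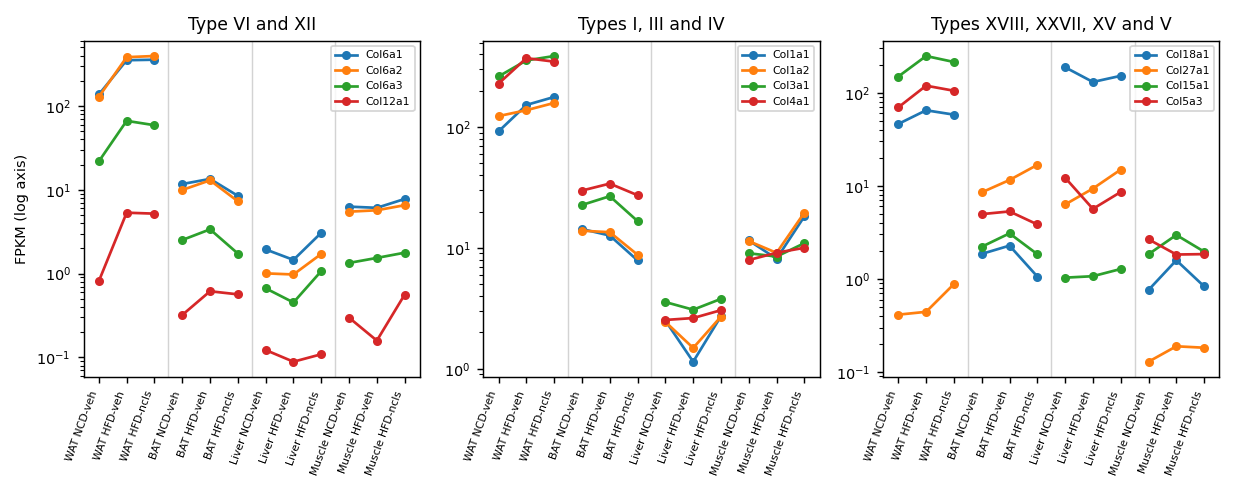
FPKM on a log axis for 12 collagen genes in the 12 libraries, 1 point a library, with the 3 libraries of an organ joined by a line. Col6a1, Col6a2, Col6a3 and Col12a1 step up from NCD-veh to both HFD libraries in WAT, Col1a1 and Col1a2 dip in HFD-veh liver and muscle, and Col27a1 climbs through the groups in BAT and liver.

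The first question was how collagen RNA differed with HFD feeding. Differences are given on log2(FPKM + 0.1), for members with at least 1 FPKM in either library, and over 2-fold means beyond 1 on this scale. In WAT, 18 of 23 members were higher in HFD-veh than in NCD-veh, against 52.7% of 12208 genes, and the median over members was 0.73, against 0.03 over all genes. Over 2-fold, 5 members were higher (5.24% of all genes) and 1 was lower (3.87% of all genes). The 3 main type VI chains were all among the 5. Col6a1 was at 137, 352 and 357 FPKM in WAT, a diet difference of 1.36. Col6a2 was at 129, 383 and 395 FPKM (1.57), and Col6a3 at 21.9, 66.5 and 59.0 FPKM (1.60). In all 3 chains both HFD libraries lay together, far above NCD-veh. The type VI sum went from 299 FPKM to 818 FPKM, and these 519 FPKM were 43.8% of the whole difference in the collagen sum.

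Col12a1, a FACIT of tendon and other dense tissue, showed the largest difference in WAT, at 0.814, 5.34 and 5.20 FPKM (2.57). Col16a1, another FACIT, was at 4.58, 9.35 and 11.1 FPKM (1.01), just past the limit. All 6 fibrillar members tested were higher in HFD-veh WAT, none of them over 2-fold, with a median of 0.58. Col5a1 was at 36.7, 68.4 and 64.3 FPKM (0.90), whereas Col1a2 was at 123, 138 and 158 FPKM (0.16). Type IV chains split by pair. Col4a2 and Col4a1 were higher by 0.98 and 0.70, while Col4a6 was over 2-fold lower, at 2.38, 0.993 and 1.18 FPKM (-1.18), and Col4a5 was at 5.15, 2.65 and 3.14 FPKM (-0.93). Col4a5 and Col4a6 form a network of their own in the basement membranes of certain epithelia and smooth muscle. With a pseudocount of 1, Col16a1 and Col4a6 no longer passed 2-fold (0.89 and -0.76). The other lower members were Col23a1 (-0.83), Col14a1 (-0.64) and Col6a6 (-0.19).

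Markers of other cell types moved in the same WAT libraries. The 4 mesothelial markers Msln, Upk3b, Wt1 and Krt19 summed to 179, 69.2 and 74.8 FPKM, with 4 of 4 lower in HFD-veh and 3 of them over 2-fold. Macrophage markers summed to 134, 314 and 341 FPKM, with 4 of 4 higher in HFD-veh. The 6 fibroblast markers summed to 1293, 726 and 817 FPKM, with 3 higher and 3 lower, led by Dcn at 949, 461 and 529 FPKM. The 4 endothelial markers summed to 126, 195 and 194 FPKM, with 3 of 4 higher in HFD-veh and a median difference of 0.59. Hepatocyte markers summed to 5.75, 43.5 and 172 FPKM in WAT, and 5 of 5 were over 2-fold higher in HFD-veh. Liver RNA in HFD-veh WAT came to 0.0531% of its level in HFD-veh liver, relative to NCD-veh WAT, and would add at most 0.107% to a member at 1 FPKM or more there. The part of the other cell types in the collagen differences was not tested.

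**Figure D4:**
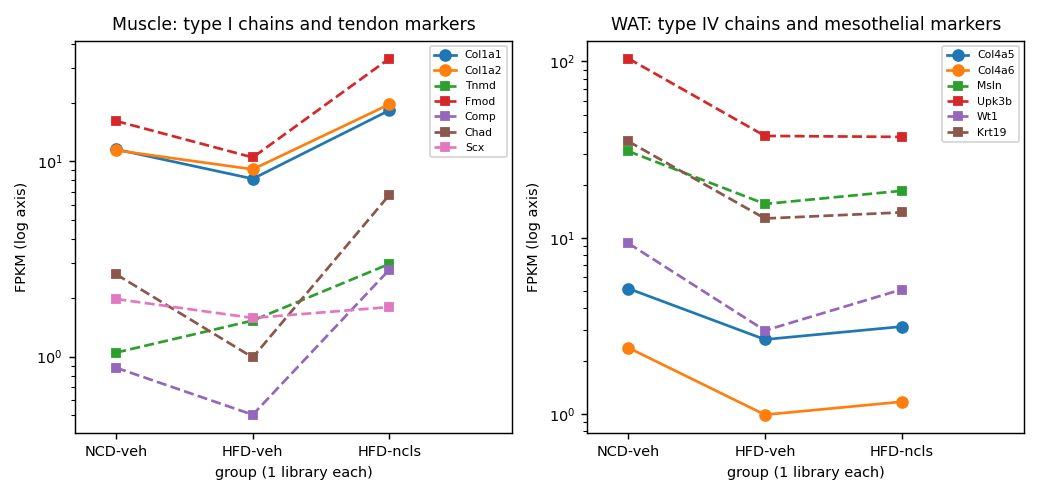
FPKM on a log axis in the 3 libraries of muscle (left, NCD-veh, HFD-veh and HFD-ncls) and WAT (right), with collagen genes as circles and markers of tendon or mesothelium as squares. In muscle Col1a1, Col1a2, Fmod, Comp and Chad are lowest in HFD-veh and highest in HFD-ncls, whereas Tnmd is lowest in NCD-veh and Scx highest in NCD-veh, and in WAT Col4a5, Col4a6 and the 4 mesothelial markers are highest in NCD-veh.

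In the other organs, diet differences were smaller. In BAT, 13 of 16 members were higher in HFD-veh than in NCD-veh, against 44.7% of 10444 genes, with a median of 0.22 and -0.04 over all genes. None was over 2-fold higher, against 2.28% of all genes, or lower, against 2.01%, and members ranged from -0.72 (Col20a1) to 0.46 (Col15a1). In liver, 5 members were higher and 7 lower, where 54% of 10016 genes were higher, with a median of -0.12 and 0.04 over all genes. None was over 2-fold higher (2.86% of all genes), and 2 were over 2-fold lower (2.27% of all genes), both of them fibrillar. Col1a1 was at 2.50, 1.14 and 2.72 FPKM in liver (-1.07), and Col5a3 was at 12.2, 5.65 and 8.58 FPKM (-1.10). With a pseudocount of 1 neither passed 2-fold (-0.71 and -0.99). Col1a2 in liver was at 2.44, 1.49 and 2.70 FPKM (-0.68). Thus 4 of the 5 fibrillar members were lower in HFD-veh liver, and the fifth, Col27a1, was higher by 0.56. Col14a1 had the highest difference in liver, at 2.97, 4.59 and 4.44 FPKM (0.61), and Col18a1 was lower by 0.53, from 188 to 131 FPKM. Of the stellate cell markers, all 3 that reached 1 FPKM were higher in HFD-veh liver, and Lrat and Des were over 2-fold higher (1.24 and 1.15). Des is also abundant in muscle fibres, whose markers summed to 2.10, 52.4 and 3.11 FPKM in liver, with 6 of 6 over 2-fold higher in HFD-veh. With the muscle RNA of this library subtracted, a step added after the data were seen, the difference in Des was 0.67, and that in Lrat stayed at 1.24. The part of stellate cells in the liver values was not tested.

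In muscle, 9 members were higher and 7 lower in HFD-veh than in NCD-veh, where 55.1% of 9587 genes were higher, and the median was 0.04, against 0.03 over all genes. None was over 2-fold higher, against 3.14% of all genes, or lower, against 0.97%. The lowest were Col7a1 (-0.64), Col22a1 (-0.62), Col5a3 (-0.52) and Col1a1 (-0.50). The highest was Col18a1, at 0.760, 1.59 and 0.831 FPKM in muscle (0.97). Liver transcripts were present in HFD-veh muscle and, over 580 liver-enriched genes, came to 0.567% of their level in HFD-veh liver. At that share, 0.741 FPKM of Col18a1 in this library, 46.7% of its level, would be liver RNA. With this amount subtracted, the difference in Col18a1 was 0.14 between diets and -0.02 between HFD-ncls and HFD-veh, in place of 0.97 and -0.86. The subtraction was chosen after the data were seen.

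The second question was how collagen RNA of HFD mice differed with ncls. This comparison shares the HFD-veh library of each organ with the diet comparison, so a level that happened to be low or high in HFD-veh moves both differences, in opposite directions. In WAT, the members hardly differed. Of 22 members, 14 were higher and 8 lower in HFD-ncls, where 58.5% of 12152 genes were higher, with a median of 0.05 and 0.04 over all genes. None was over 2-fold higher, against 1.49% of all genes, or lower, against 0.214%, and members ranged from -0.21 (Col15a1) to 0.43 (Col28a1). The collagen sum of HFD-ncls WAT was 0.999 times that of HFD-veh WAT. Type VI chains in HFD-ncls WAT differed from HFD-veh by 0.02 (Col6a1), 0.05 (Col6a2) and -0.17 (Col6a3).

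In BAT, 13 of 16 members were lower in HFD-ncls than HFD-veh, where 46% of 10331 genes were higher, and the median was -0.67, against -0.02 over all genes. None was over 2-fold higher (0.261% of all genes), and Col18a1 alone was over 2-fold lower (1.7% of all genes), at 1.85, 2.28 and 1.06 FPKM (-1.03). With a pseudocount of 1 it no longer passed 2-fold (-0.67). The lower values spanned fibrillar, type IV, type VI and multiplexin members. Among fibrillar members, Col1a1 was at 14.3, 12.7 and 7.88 FPKM (-0.68), and Col3a1 at 22.7, 26.8 and 16.7 FPKM (-0.68). Both were lowest in HFD-ncls, under NCD-veh as well. Type VI chains differed by -0.66 (Col6a1), -0.82 (Col6a2) and -0.92 (Col6a3), and type IV chains less, by -0.32 (Col4a1) and -0.36 (Col4a2). The 3 higher members were Col27a1 (0.54), Col20a1 (0.35) and Col8a1 (0.22), a short-chain collagen of vessel walls. Other markers moved in these libraries too. Skeletal muscle fibre markers summed to 1593, 688 and 95.2 FPKM in BAT, with 6 of 6 over 2-fold lower in HFD-ncls than HFD-veh. The share of muscle RNA in HFD-veh BAT, relative to HFD-ncls BAT, was 0.691% of the muscle level. At that share, at most 0.665% of any of the 16 members at 1 FPKM or more in HFD-veh BAT would be muscle RNA. Fibroblast markers summed to 88.9, 79.5 and 71.8 FPKM, with 6 of 6 lower in HFD-ncls than HFD-veh, and 4 of 4 endothelial markers were lower too. Macrophage markers summed to 7.92, 14.3 and 6.02 FPKM, with all 3 that reached 1 FPKM lower. The part of fibroblasts, vessels and macrophages was not tested.

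**Figure D5:**
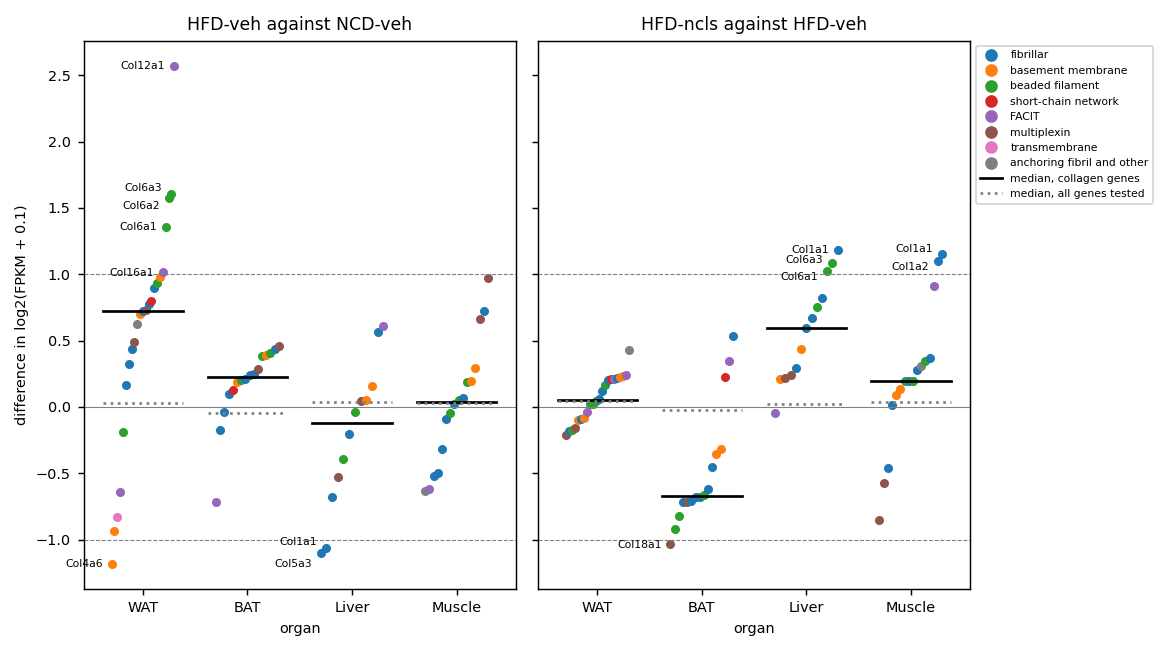
Differences in log2(FPKM + 0.1) of collagen genes between HFD-veh and NCD-veh (left) and between HFD-ncls and HFD-veh (right) in each organ, 1 point a gene, coloured by class, with bars for the median of collagen genes and of all genes tested and dashed lines at 2-fold. The collagen medians stand at 0.73 in WAT on the left, and at -0.67 in BAT and 0.59 in liver on the right.

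In liver, the values went the other way. Of 13 members, 12 were higher in HFD-ncls than HFD-veh, against 52.4% of 9956 genes, and the median was 0.59, against 0.02 over all genes. Over 2-fold, 3 members were higher (1% of all genes) and none was lower (1.31%). Col1a1 differed by 1.18, Col6a3 by 1.08, at 0.669, 0.453 and 1.07 FPKM, and Col6a1 by 1.03, at 1.95, 1.46 and 3.07 FPKM. For all 3, HFD-veh was the lowest of the liver libraries and HFD-ncls the highest. With a pseudocount of 1 none of the 3 passed 2-fold, at 0.80 for Col1a1, 0.51 for Col6a3 and 0.73 for Col6a1. These levels are low, and Col6a3 in HFD-veh liver and Col1a1 there rested on about 89 and 152 fragments, from an approximate depth. Col5a3 differed by 0.59 and stayed between its HFD-veh and NCD-veh levels. Col14a1 was the 1 member that was lower, by 0.05. Col27a1 was higher by 0.67 and was also higher in HFD-veh than in NCD-veh. Col18a1 was at 152 FPKM, between the other 2 groups. Mesothelial markers summed to 3.07, 2.31 and 6.37 FPKM in liver, and the 3 that reached 1 FPKM were over 2-fold higher in HFD-ncls. Fibroblast markers summed to 57.7, 70.4 and 77.7 FPKM. Other lists went down between HFD-veh and HFD-ncls. Stellate cell markers summed to 4.44, 8.53 and 6.98 FPKM, with Lrat at 2.46 and then 1.51 FPKM but Reln nearly level at 3.07 and 3.10 FPKM. Macrophage markers summed to 17.2, 11.8 and 9.52 FPKM, and endothelial markers to 10.0, 9.51 and 8.87 FPKM. The part of these cell types was not tested.

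In muscle, 13 of 16 members were higher in HFD-ncls than HFD-veh, against 55.5% of 9694 genes, with a median of 0.20 and 0.04 over all genes. Over 2-fold, 2 were higher (1.27% of all genes) and none was lower (2.53%). They were the chains of type I. Col1a1 was at 11.5, 8.14 and 18.2 FPKM in muscle (1.15), and Col1a2 at 11.4, 9.10 and 19.6 FPKM (1.10). In both, HFD-ncls was the highest library and HFD-veh the lowest. Col22a1 followed with a difference of 0.91, in the same order of groups. Col3a1, which accompanies type I in most tissues, was at 9.03, 8.48 and 10.9 FPKM (0.36). Type IV chains differed by 0.13 (Col4a1) and 0.09 (Col4a2). Fibrillar members held 77.7% of the difference of 29.8 FPKM in the collagen sum. Tendon markers summed to 22.6, 15.1 and 47.9 FPKM, and 5 of 5 were higher in HFD-ncls than HFD-veh, with Fmod, Comp and Chad over 2-fold. Fmod, a fibril-binding proteoglycan of tendon, was at 16.1, 10.5 and 33.6 FPKM. Tnmd was at 1.05, 1.53 and 2.98 FPKM, and Scx at 1.97, 1.58 and 1.79 FPKM. Other markers moved too. Fibroblast markers summed to 87.2, 92.6 and 133 FPKM in muscle, with 3 higher and 3 lower in HFD-ncls than HFD-veh, led by Dcn at 69.5, 67.2 and 108 FPKM. Adipocyte markers summed to 19.5, 46.3 and 29.0 FPKM, with 4 of 4 higher in HFD-veh than NCD-veh (3 over 2-fold) and 4 of 4 lower in HFD-ncls than HFD-veh. The part of tendon, fibroblasts and adipocytes in the type I values was not tested.

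Genes that make, fold, cut, crosslink or bind collagen were read as a list of 54, all of them listed in the data. In WAT, 33 of 45 tested were higher in HFD-veh than in NCD-veh, against 52.7% of all genes, with a median of 0.26 and 0.03 over all genes. Over 2-fold, 6 were higher, against 5.24% of all genes, and 1 was lower, against 3.87%. Mrc2, the receptor that takes up collagen for breakdown, was at 4.48, 39.6 and 36.7 FPKM in WAT. Serpinh1, the collagen chaperone Hsp47, was at 220.12, 454 and 393 FPKM. Ctsk, a collagen-degrading protease, was at 9.35, 29.7 and 36.8 FPKM, and the protease inhibitor Timp1 at 3.97, 13.4 and 19.6 FPKM. The prolyl hydroxylase Lepre1 and the propeptide-cutting protease Adamts14 completed the 6. Mmp9, a gelatinase, was the 1 lower gene, at 7.95, 1.47 and 0.759 FPKM.

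Outside WAT, few of these genes passed 2-fold between diets. In BAT, 25 of 36 were higher in HFD-veh, against 44.7% of all genes, with a median of 0.26 and -0.04 over all genes. Only Pcolce, an enhancer of propeptide removal, was over 2-fold higher (2.28% of all genes), at 13.0, 41.5 and 20.2 FPKM. In liver, 9 of 23 were higher, against 54% of all genes, with a median of -0.16 and 0.04 over all genes. Serpinh1 was over 2-fold higher there (2.86% of all genes), at 1.74, 3.71 and 4.39 FPKM, and the membrane-bound collagenase Mmp14 was over 2-fold lower (2.27% of all genes), at 16.9, 6.44 and 7.93 FPKM. In muscle, 22 of 30 were higher, against 55.1% of all genes, with a median of 0.13 and 0.03 over all genes, and none was over 2-fold. Between HFD-ncls and HFD-veh, 29 of 45 were higher in WAT, against 58.5% of all genes, with a median of 0.06. In BAT 7 of 36 were higher, against 46% of all genes, with a median of -0.25. In liver 18 of 23 were higher, against 52.4% of all genes, with a median of 0.29. In muscle 22 of 32 were higher, against 55.5% of all genes, with a median of 0.17. The medians over all genes were 0.04 in WAT, -0.02 in BAT, 0.02 in liver and 0.04 in muscle. Ctgf, a matricellular inducer of collagen, was the only gene of the list over 2-fold higher in WAT (1.49% of all genes), liver (1%) and muscle (1.27%). It was at 7.13, 11.1 and 26.9 FPKM in WAT, at 1.21, 1.37 and 3.56 FPKM in liver and at 3.68, 2.29 and 5.33 FPKM in muscle. Ctgf went the other way in BAT, at 0.989, 1.37 and 0.751 FPKM. In BAT, Pcolce alone passed 2-fold, and it was lower in HFD-ncls (1.7% of all genes).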

How the data were processed

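RNA-seq of WAT, BAT, liver and muscle was analysed, with 1 library per organ and group, grouped by the sample titles. Per the study's methods, TopHat 2.0.11 placed reads on mm9, and the authors deposited 1 FPKM value from Cufflinks per gene symbol and library. FPKM scales to length and mapped fragments, so a few abundant genes can shift all others, and no count test was run. All columns were used. Differences were computed on log2(FPKM + 0.1), which understates the change of low genes, for genes with at least 1 FPKM in either library, and a gene past 2-fold was called. With 1 library per group no test was possible. Calculations were made in Python 3.11.15 with numpy 2.4.6, pandas 2.3.3 and matplotlib 3.10.9, and were tested on simulated data. Named genes were, per organ, the 5 with the highest mean, those past 2-fold, the chains of types I, III, IV, V and VI, and the 5 with the largest ratio to other organs. Others were named after their values were seen. Members, classes, pathway and marker lists were chosen with earlier results of these data known. RNA of another organ was estimated as the median, over genes enriched there (mean of at least 10 FPKM and 20 times the median elsewhere), of the FPKM above other libraries of the receiving organ, relative to the source. Only liver and muscle were taken as sources. Upstream windows came from RefSeq (GRCm38.p6) and gene positions from an mm9 annotation. Alternatives were a pseudocount of 1, no filter, at least 5 FPKM, rescaling by the median ratio and subtraction of RNA of another organ (not in HFD-veh WAT, where its share was estimated last). Protein features were planned but not computed, since no protein table was used here.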

Additional observations from a re-analysis of the deposited data

Results flagged for a closer look

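The difference between HFD-ncls and HFD-veh in collagen RNA had opposite directions in 2 organs. The median over collagen genes was -0.67 in BAT (13 of 16 genes lower) and 0.59 in liver (12 of 13 genes higher), on log2(FPKM + 0.1). Each value compares 1 library with 1 library, and the difference between the organs was not tested.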

How the results depend on the processing

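No paired analysis was possible because each organ and group has 1 library and the labels give no shared replicate numbers, and for the same reason no replicate could be left out. A median was taken as the same within 0.1 on the log2 scale, and a count within 1.5 times. Rescaling by the median ratio kept all 20 medians and counts within these limits, although the count past 2-fold in WAT between diets went from 6 to 5 and that of genes highest in WAT from 22 to 19. So did subtraction of RNA of another organ for all 14 it bore on, an alternative chosen after seeing the data. Without the filter on FPKM, the median over collagen genes was 0.22 in WAT, 0.048 in BAT, -0.020 in liver and 0 in muscle between diets (the muscle value thus lost its direction), and -0.11 in BAT and 0.18 in liver between HFD-ncls and HFD-veh. The count past 2-fold was then 2 in WAT and 4 in muscle for ncls, and 2 genes were highest in BAT, 3 in liver and 6 in muscle. With a pseudocount of 1, the ncls median was -0.50 in BAT and 0.46 in liver, and no gene was past 2-fold in BAT (0), in liver between diets (0) or in liver with ncls (0). With at least 5 FPKM, 0 genes passed in BAT and 0 in liver with ncls, 1 passed in liver between diets with a median of -0.53, the muscle diet median turned to -0.046, the muscle ncls median was 0.35, and 0 genes were highest in BAT and 0 in muscle. The filters change which genes are counted, and a pseudocount of 1 shrinks differences of low genes, by construction. Shares of all genes were not computed under these alternatives, so the counts stand without them. Of 58 values for genes past 2-fold, 49 stayed past it, 9 did not and 0 reversed. Of the 9, 8 came with a pseudocount of 1, including Col16a1 in WAT (0.89) and Col4a6 (-0.76), and Col16a1 also came to 0.99 after rescaling. Depth limits the low genes, such as Col6a3 with about 89 fragments in HFD-veh liver.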
